A study of Mus musculus with 8 samples.

Results

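The genes described here are the 5 class I antigen presentation genes of a table of UMI counts from single mouse neutrophils: B2m, H2-K1, H2-D1, Tap1 and Tapbp. They were taken by name, and all 5 were found among the 10970 genes of the table and passed the filter on low counts in the test of sums per sample. Neutrophils were enriched from peripheral blood (PB) or bone marrow (BM) of mice injected intraperitoneally with PBS or with LPS at 0.5 mg/kg, and single cells were picked by pipette and sequenced by SCRB-seq, in which each captured transcript carries a unique molecular identifier (UMI). The 4 groups are PBS-primed PB, LPS-primed PB, PBS-primed BM and LPS-primed BM neutrophils, with 2 labelled samples each. Titles mark the PBS samples as 0 h and those given LPS as 4 h, whereas the methods prepare both at 4 h. The labels give neither strain, age nor sex, and the study's reporting summary states male adult mice of the C57BL/6J background. The labels name no transgene or deletion in any group. The name of 711 cells ties them to 1 of the 8 samples, and all of these are in batch 7 of the deposited annotation. The other 710 cells are in batch 6, where the names give a group but no sample, so the 9 plates of batch 6 are given as values without a test.

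MHC class I molecules display peptides from inside a cell to cytotoxic T cells and are read by natural killer cells. The heavy chain, encoded here by H2-K1 and H2-D1, pairs with the invariant light chain β2-microglobulin, the product of B2m. Peptides cut by the proteasome enter the endoplasmic reticulum through the transporter formed by Tap1 and Tap2, and tapasin, the product of Tapbp, holds the empty heavy chain beside that transporter while a peptide is loaded. Interferons raise the transcription of these genes in many cell types, through elements close to their start sites.

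In the mm9 gene models (NCBIM37, GENCODE M1), B2m lies on the plus strand at chr2:121973422-121978819 and has 4 exons in its first transcript. The other 4 genes lie together on chromosome 17, in the region of the H2 complex. Tapbp is at chr17:34052844-34066235 on the plus strand with 8 exons, H2-K1 at chr17:34132962-34137278 on the minus strand with 8 exons, Tap1 at chr17:34324498-34334170 on the plus strand with 11 exons, and H2-D1 at chr17:35399675-35404444 on the plus strand with 8 exons.

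The stretches before the start sites are shown because interferon and NF-κB signalling are known to act through elements there. They come from the RefSeq promoter table (build GRCm38.p6, 250 bases before to 50 after the start), in which all 5 genes were found, and only the part around the matches before the start is printed. H2-K1 has 2 entries there, of which the first was used, so its positions and matches hold for that start. Capitals mark matches to the interferon response element (GAAA and GAAA set 2 bases apart), the kappa B element (GGG, 2 bases, TT, 1 base, CC) and TGACG, the core of the X2 box or CRE. Both strands were searched and the marked matches do not overlap one another.
B2m, chr2:122147533-122147628, plus strand: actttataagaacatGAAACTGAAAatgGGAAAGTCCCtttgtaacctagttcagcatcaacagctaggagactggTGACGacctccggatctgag
H2-K1, chr17:34000369-34000473, minus strand: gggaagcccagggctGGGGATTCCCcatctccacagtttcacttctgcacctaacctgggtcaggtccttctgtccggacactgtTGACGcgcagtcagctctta
H2-D1, chr17:35262908-35263012, plus strand: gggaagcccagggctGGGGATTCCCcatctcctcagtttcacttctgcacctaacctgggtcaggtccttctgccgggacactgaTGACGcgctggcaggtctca
Tap1, chr17:34187455-34187489, plus strand: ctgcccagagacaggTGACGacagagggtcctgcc

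Of the 5 promoters, that of B2m alone held the interferon response element in this spelling, with its first base 139 bases before the start. The kappa B element was found before B2m (on the minus strand), H2-K1 and H2-D1, and TGACG before these 3 and Tap1. B2m had a further TGACG on the minus strand, 45 to 49 bases after the start. The window of Tapbp held none of the searched spellings, and TTCNNNGAA, the STAT element, matched in none of the 5. Of all 32851 promoters of the same length, 3.44% held the interferon response element, 8.3% the STAT element, 4.79% the kappa B element and 20.8% TGACG. These are matches of letters, and no match says only that the spelling is not in the window.

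H2-K1 and H2-D1 are close relatives, so their counts need care. Their coding sequences were identical at 92.0% of 1077 aligned bases and their 3′ untranslated regions at 90.1% of 415, and the 250 bases before their starts at 89.5% of 190 aligned bases. The authors counted uniquely mapped reads only, so reads from stretches that class I heavy chain genes share could be lost or misplaced. Of 24 other class I heavy chain genes and relatives looked for, 9 are in the table. The split of reads between H2-K1 and H2-D1 is therefore uncertain, and the sum of the H2 class I heavy chains is given below beside the single genes. That sum takes in H2-K1, H2-D1 and the other H2 class I genes of the table, such as H2-Q10. B2m, Tap1 and Tapbp have no such relative among the members.

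The 8 samples held 83 to 92 cells and 3235712 to 8358212 UMIs each, and the batch 6 plates 44 to 95 cells. All 12 neutrophil markers looked for had UMIs in each group. Their summed level was 145216.3 to 153759.7 CPM in PBS-primed PB, 268377.3 to 296037.9 in LPS-primed PB and 332053.9 to 390785.5 in marrow samples. Not all were well above 0 in PBS-primed PB, where Ltf was at 4.96 and 8.96 CPM. Samples differed in how far a few genes filled the library, since the 20 most abundant genes took 29.6% to 30.6% of UMIs in PBS-primed PB, 42.4% to 44.9% in LPS-primed PB and 43.6% to 50.8% in marrow samples. Levels below are CPM, a gene's UMIs scaled to a common total of UMIs per plate, and ratios of batch 6 groups in CPM are ratios of the levels pooled over plates. Tests use TMM scaling, which assumes that most genes do not differ, and the value under library size alone is given beside it, because the median log2 fold change of all tested genes in LPS-primed against PBS-primed PB was -0.11 under TMM and -1.02 under library size alone. The labels do not say that samples of a group came from separate mice, so the p-values measure the spread between these samples, which may be technical.

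B2m, the light chain of every class I molecule, was the most abundant member in LPS-primed PB neutrophils. The samples stood at 3680.4 and 3829.5 CPM in PBS-primed PB and 6969.6 and 8112.2 in LPS-primed PB neutrophils, and at 2677.6 and 2941.4 (PBS) and 1896.6 and 1731.5 (LPS) in BM neutrophils. Both LPS-primed PB samples lay above the 6 others and both LPS-primed BM samples below. B2m rose with LPS in blood by a log2 fold change of 1.93 (SE 0.17, edgeR adjusted p = 8.27e-05), and by 1 (SE 0.15, edgeR adjusted p = 0.00445) under library size alone. In marrow its log2 fold change was -0.82 (SE 0.16, edgeR adjusted p = 0.164). The batch 6 plates did not repeat the pattern in full: PBS-primed PB plates stood at 5928.3 and 6202.8 CPM and LPS-primed PB plates at 7469.3 and 5902.0, so that they overlapped. Under TMM over all 17 plates the LPS-primed PB plates of batch 6 were higher by 2.29-fold without overlap. In marrow, the single LPS-primed plate of batch 6 was at 3038.2 and the 4 PBS-primed plates ranged from 1414.1 to 3204.8, a ratio of 1.26 where the samples had 0.646.

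H2-K1, a classical heavy chain, was the less abundant of the 2 heavy chains in every sample. It stood at 844.7 and 784.4 CPM in PBS-primed PB and 1811.5 and 1450.9 in LPS-primed PB neutrophils, and at 332.0 and 342.5 (PBS) and 426.0 and 310.8 (LPS) in BM neutrophils. Blood and marrow samples did not overlap, the LPS-primed PB samples were the highest, and the 2 marrow groups overlapped. H2-K1 rose with LPS in blood by a log2 fold change of 1.91 (SE 0.24, edgeR adjusted p = 0.00095), and by 1 (SE 0.24, edgeR adjusted p = 0.0428) under library size alone. In marrow the value was -0.06 (SE 0.23, edgeR adjusted p = 1). In batch 6 the LPS-primed PB plates, at 1468.6 and 1530.6, lay above the PBS-primed PB plates, at 1170.8 and 641.1, and the ratio of their pooled levels was 1.69 against 2.0 in the samples. The LPS-primed BM plate of batch 6, at 392.4, lay just above the PBS-primed BM plates, at 225.4 to 385.8.

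H2-D1, the other classical heavy chain, was not called with LPS in either tissue. It stood at 3572.5 and 4136.0 CPM in PBS-primed PB and 3050.3 and 3613.2 in LPS-primed PB neutrophils, and at 1845.9 and 1785.2 (PBS) and 1652.8 and 1611.5 (LPS) in BM neutrophils. The 2 blood groups overlapped, and both lay above marrow. Its log2 fold change with LPS in blood was 0.71 (SE 0.18, edgeR adjusted p = 0.0533) under TMM and -0.21 (SE 0.17, edgeR adjusted p = 0.475) under library size alone, so its direction depends on the scaling. In batch 6 the LPS-primed PB plates were lower in CPM without overlap, with 3044.6 and 1797.8 in LPS-primed PB plates against 3363.3 and 4705.2 in PBS-primed PB plates. Under TMM over all plates these groups of batch 6 overlapped, at a ratio of 1.24. In marrow the log2 fold change was -0.34 (SE 0.18, edgeR adjusted p = 0.631). Marrow plates of batch 6 went the other way, with 2303.8 after LPS and 1628.0 to 2233.8 after PBS, a ratio of 1.18 where the samples had 0.899.

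Tap1, a subunit of the peptide transporter, was the rarest member in all samples but LPS-primed PB replicate 1 and had the largest log2 fold change of the 5 with LPS in blood. It stood at 92.9 and 145.3 CPM in PBS-primed PB and 472.1 and 369.9 in LPS-primed PB neutrophils, and at 24.8 and 36.1 (PBS) and 68.7 and 51.7 (LPS) in BM neutrophils. The LPS-primed PB samples stood apart from all others, and the LPS-primed BM samples were both above the PBS-primed BM samples. Tap1 rose with LPS in blood by a log2 fold change of 2.73 (SE 0.41, edgeR adjusted p = 0.00338), and by 1.82 (SE 0.43, edgeR adjusted p = 0.0367) under library size alone. In marrow the value was 0.79 (SE 0.39, edgeR adjusted p = 0.618) and did not pass. In batch 6 it was 438.8 and 365.6 in LPS-primed PB plates, 49.2 and 95.5 in PBS-primed PB plates, 103.3 in the LPS-primed BM plate and 37.7 to 54.0 in PBS-primed BM plates. The LPS-primed PB plates stood apart there too, the LPS-primed BM plate was above both PBS-primed PB plates, and the latter overlapped PBS-primed BM.

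Tapbp, which encodes tapasin, stood at 164.8 and 240.4 CPM in PBS-primed PB and 468.6 and 533.9 in LPS-primed PB neutrophils, and at 121.5 and 87.3 (PBS) and 124.8 and 146.5 (LPS) in BM neutrophils. The LPS-primed PB samples were again the highest, and the marrow groups lay close together. Tapbp rose with LPS in blood by a log2 fold change of 2.23 (SE 0.35, edgeR adjusted p = 0.00417). Under library size alone the value was 1.3 (SE 0.35) and missed the threshold (edgeR adjusted p = 0.0626). In marrow the value was 0.20 (SE 0.33, edgeR adjusted p = 1). In batch 6 the LPS-primed PB plates, at 573.0 and 685.0, lay above those of PBS-primed PB, at 330.4 and 152.6. The LPS-primed BM plate of batch 6 was at 99.8 and the PBS-primed BM plates at 99.4 to 215.4, a ratio of 0.736 where the samples had 1.3, and under TMM over all plates it lay below them (0.71).

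**Figure D1:**
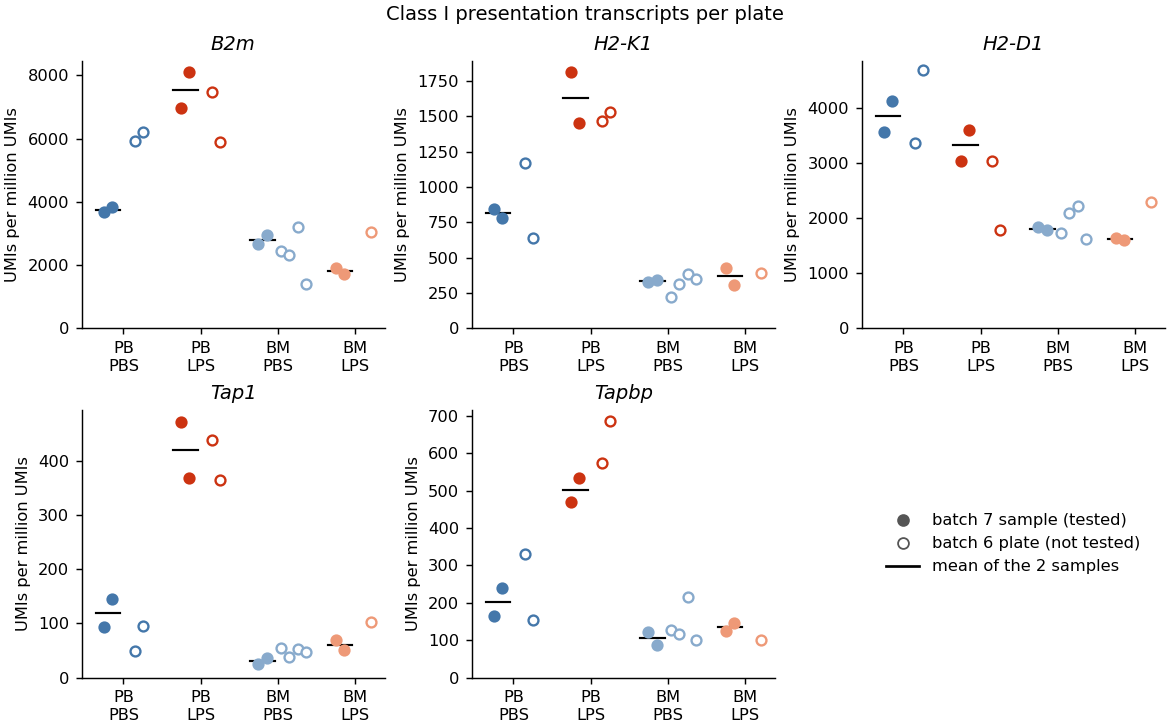
Levels of the 5 members in CPM (linear axes from 0), by group, with filled points for the 8 batch 7 samples, open points for the 9 batch 6 plates and a bar for the mean of the 2 samples. LPS-primed PB plates are the highest for H2-K1, Tap1 and Tapbp in both batches, whereas B2m overlaps between PBS-primed and LPS-primed PB plates of batch 6 and H2-D1 is not raised in CPM.

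The comparison of LPS-primed with PBS-primed PB neutrophils asked what a low dose of LPS does to the transcripts of circulating neutrophils. Of the 5 members 4 rose (B2m, H2-K1, Tap1 and Tapbp), where 3.94% of the 8478 genes tested passed, 294 higher and 40 lower. The median log2 fold change of the members was 1.93, beside -0.11 over all tested genes. Under library size alone 140 genes were called higher and 268 lower, and 3 of the 5 members passed. The summed H2 class I heavy chains had 5970.3 and 6748.4 CPM in PBS-primed PB and 5601 and 5721.1 in LPS-primed PB samples. Their log2 fold change was 0.75 (SE 0.15, edgeR adjusted p = 0.0175) under TMM and -0.17 (SE 0.14, edgeR adjusted p = 0.515) under library size alone, so the direction of the sum, like that of H2-D1, depends on the scaling. H2-Q10, which is in the sum, was at 1310.0 and 1526.1 CPM in PBS-primed PB and 415.5 and 411.9 in LPS-primed PB samples. Its part in the direction of the sum, and a sum of H2-K1 and H2-D1 alone, were not tested. Without PBS-primed PB replicate 1, Tap1 (log2 fold change 2.39, edgeR adjusted p = 0.0582, range over all alternatives 1.79e-07 to 0.373) and Tapbp (1.92, edgeR adjusted p = 0.0632, range 1.54e-06 to 0.327) no longer passed, which leaves 2 members called. H2-D1 was past the threshold without LPS-primed PB replicate 1 (0.84, edgeR adjusted p = 0.0431), without PBS-primed BM replicate 1 (0.72, edgeR adjusted p = 0.0396) and without PBS-primed BM replicate 2 (0.72, edgeR adjusted p = 0.0363), with a range of 0.0101 to 0.475 over all its alternatives. H2-D1 also passed with DESeq2 (0.63, DESeq2 adjusted p = 0.0347) and limma (0.71, limma adjusted p = 0.0101). In edgeR it passed without the filter on low counts (edgeR adjusted p = 0.0444) and with at least 100 UMIs (edgeR adjusted p = 0.044). In all, H2-D1 passed in 8 of its 21 alternatives. With the 4 batch 6 group sums added and batch as a term, the same 4 members passed, at 1.67 for B2m, 1.86 for H2-K1, 2.90 for Tap1 and 2.29 for Tapbp, and H2-D1 was at 0.58 (edgeR adjusted p = 0.104).

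Other cells and other transcripts differed between the blood groups as well. In each PBS-primed PB sample 5 cells carried B, T or NK cell markers, and LPS-primed PB samples had 0 such cells. The batch 6 plates had 6 and 4 such cells in PBS-primed PB and 0 and 4 in LPS-primed PB. The summed T or NK markers ranged from 627.3 to 711.4 CPM in PBS-primed PB (8 of 8 in the table detected) and from 1.87 to 2.21 in LPS-primed PB (6 of 8, Klrb1c and Gzma at 0). These lymphoid-marker cells held 24% and 39.6% of the H2-K1 UMIs of the 2 PBS-primed PB samples, 14.9% and 17.1% of those of B2m, 19.8% and 6.78% of those of H2-D1, 2.78% and 0.638% of those of Tap1, and 3.25% and 20.6% of those of Tapbp. Without cells with markers of another type, liver markers left aside, the log2 fold change of H2-K1 was 2.23, that of B2m 1.88, that of Tap1 2.39 and that of Tapbp 2.09, and the same 4 members passed. Platelet markers summed to 288.0 to 423.2 CPM in PBS-primed PB and 73.4 to 123.6 in LPS-primed PB samples (4 of 4 detected in both). In batch 6 they summed to 2721.1 and 1139.8 CPM in PBS-primed PB plates and to 1.41 and 49.6 in LPS-primed PB plates. Cells with markers of another type numbered 38 and 23 in these PBS-primed PB plates and 1 and 5 in the LPS-primed PB plates.

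Liver transcripts were spread over nearly all blood cells of batch 7. Of the 353 PB cells in that batch, 322 held at least 5 UMIs in each of 2 or more markers of another cell type, and 23 did so when the hepatocyte list (Alb, Apoa1, Apoa2, Ttr, Mup3) was left aside. Its summed level was 1466.1 to 2250.8 CPM in PBS-primed and 828.3 to 862.8 in LPS-primed PB samples, and at most 1.08 in the PB plates of batch 6. Those batch 6 plates differed in platelet markers, as given above. In CPM, H2-K1, Tap1 and Tapbp were higher there after LPS without overlap, B2m overlapped and H2-D1 was lower. Removing all cells with any such marker left 5 to 12 cells per PB sample, in which B2m was called (log2 fold change 2.21) and H2-K1 (1.62), Tap1 (1.87) and Tapbp (2.05) were not. LPS-primed PB neutrophils also held secondary granule transcripts that were scarce in PBS-primed PB, such as Ngp, at 8308.5 and 9308.1 CPM against 61.4 and 141.9, with 18575.7 and 34425.4 in PBS-primed BM. The median ERCC fraction of a cell was 0.633 and 0.664 in PBS-primed PB and 0.52 and 0.498 in LPS-primed PB samples. The part of these differences in the members' change was not tested.

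The comparison of LPS-primed with PBS-primed BM neutrophils asked the same of cells that had stayed in the marrow. Of the members 0 passed, where 0.0708% of tested genes passed, 6 in all, and the members' median log2 fold change was -0.06 beside 0 over all tested genes. At an unadjusted p under 0.05 there were 684 genes, among them 1 member, B2m. With DESeq2 B2m passed, at -0.86 (DESeq2 adjusted p = 0.00518), and over all its alternatives its adjusted p ranged from 0.00518 to 1, with every value below 0 (-0.91 to -0.44). The opposite ratio in batch 6, given above, rests on 1 LPS-primed plate. The direction of H2-K1 in marrow changed with the setting, from -0.44 to 0.13, and was not called in any.

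PBS-primed PB and BM neutrophils were compared to see how the genes differ between tissues without LPS. Of the members 0 passed, where 2.61% of tested genes passed, 100 higher and 121 lower in blood. The split was 213 higher and 84 lower under library size alone. The log2 fold changes were -0.10 (SE 0.16) for B2m, 0.75 for H2-K1 (edgeR adjusted p = 0.147), 0.56 for H2-D1 (edgeR adjusted p = 0.153), 1.44 for Tap1 (edgeR adjusted p = 0.101) and 0.44 for Tapbp. H2-K1, H2-D1 and Tap1 had an unadjusted p under 0.05, as did 1569 genes, and these 3 passed in DESeq2 and in edgeR under library size alone (1.28, 1.09 and 1.97). The sum of the heavy chains was higher in blood by 0.77 (SE 0.15, edgeR adjusted p = 0.0206), and by 1.29 (SE 0.15, edgeR adjusted p = 0.000645) under library size alone. It includes H2-Q10, which was itself higher in blood (1.91, edgeR adjusted p = 0.00374). Lymphoid-marker cells held 24% and 39.6% of the H2-K1 UMIs and 19.8% and 6.78% of the H2-D1 UMIs of the PBS-primed PB samples. PBS-primed BM samples had 0 such cells. The part of either in the sum was not tested. In batch 6, H2-K1 and H2-D1 were also higher in blood, at ratios of 2.88 and 2.09 in CPM without overlap (under TMM over all plates H2-D1 overlapped), and Tap1 was not set apart, at 1.58 with overlapping plates. B2m was 2.52 times as high in blood in batch 6, again without overlap.

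After LPS, the tissues stood far apart. All 5 members were higher in LPS-primed PB than in LPS-primed BM neutrophils, where 3.73% of tested genes passed, 277 higher and 39 lower. The split was 157 higher and 106 lower under library size alone, and 115 and 150 with cell number as the scaling. The log2 fold changes were 2.64 for B2m (SE 0.17, edgeR adjusted p = 1.89e-05), 2.72 for H2-K1 (SE 0.25, edgeR adjusted p = 0.000146), 1.62 for H2-D1 (SE 0.18, edgeR adjusted p = 0.000554), 3.38 for Tap1 (SE 0.43, edgeR adjusted p = 0.00111) and 2.47 for Tapbp (SE 0.35, edgeR adjusted p = 0.00244). All 5 also passed under library size alone, at 2.06, 2.15, 1.03, 2.81 and 1.89, and in each fit that left out 1 sample. In batch 6 the ratios in CPM were 2.23 for B2m, 3.81 for H2-K1, 3.94 for Tap1 and 6.23 for Tapbp, all without overlap. H2-D1 had a ratio of 1.09 in CPM in batch 6 with overlapping plates, and of 1.57 without overlap under TMM over all plates.

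The difference between the LPS effects in blood and in marrow was tested in the same model. It passed for 2 members, B2m at 2.75 (SE 0.23, edgeR adjusted p = 0.000102) and H2-K1 at 1.97 (SE 0.33, edgeR adjusted p = 0.0114), where 1.5% of tested genes passed. It was 1.05 for H2-D1 (edgeR adjusted p = 0.0851), 1.95 for Tap1 (edgeR adjusted p = 0.167) and 2.03 for Tapbp (edgeR adjusted p = 0.0772). Under library size alone B2m stayed past the threshold at 1.63 (edgeR adjusted p = 0.00429), H2-K1 did not at 0.87 (edgeR adjusted p = 0.23) and H2-D1 was at -0.06. The H2-K1 difference was also lost without PBS-primed PB replicate 1 (1.98, edgeR adjusted p = 0.0606), without PBS-primed PB replicate 2 (1.88, edgeR adjusted p = 0.0736) or without LPS-primed BM replicate 2 (1.78, edgeR adjusted p = 0.0747), and ranged over its alternatives from 1.03e-05 to 0.565. The difference for Tapbp passed with the batch 6 sums added (2.29, edgeR adjusted p = 0.00195, range 0.00195 to 0.676). For Tap1 and Tapbp, called in blood and not in marrow, the difference between tissues was thus not past the threshold.

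**Figure D2:**
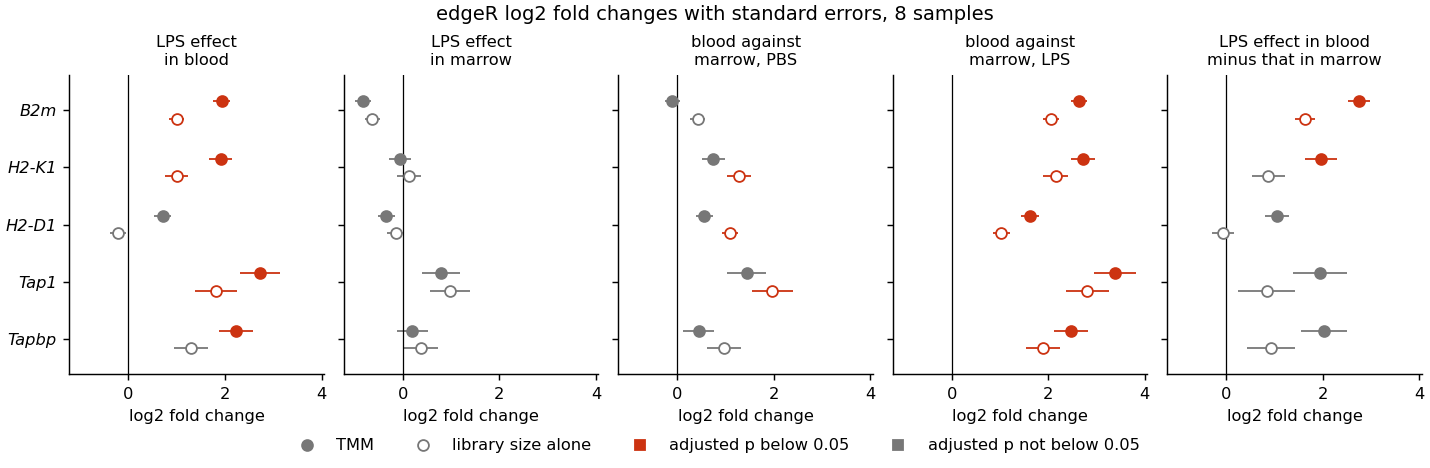
Log2 fold changes of the members in the 5 comparisons, with standard errors, from edgeR on the 8 samples under TMM (filled) and library size alone (open), red where the adjusted p was below 0.05. In LPS-primed against PBS-primed PB, TMM calls B2m, H2-K1, Tap1 and Tapbp, and library size alone leaves B2m, H2-K1 and Tap1, with H2-D1 at -0.21.

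Ratios of 2 members within a plate do not depend on scaling. The ratio of H2-K1 to H2-D1 UMIs was 0.236 and 0.19 in PBS-primed PB and 0.594 and 0.402 in LPS-primed PB samples, and 0.18 and 0.192 (PBS) and 0.258 and 0.193 (LPS) in BM samples. Over both batches the lowest LPS-primed PB plate was at 0.402 and the highest of the other plates at 0.348. For B2m to H2-D1 the means were 0.978 ± 0.0738 (SD, n = 2) in PBS-primed PB, 2.27 ± 0.0281 in LPS-primed PB, and in marrow 1.55 ± 0.139 after PBS and 1.11 ± 0.0517 after LPS, and over all plates 2.25 was the lowest LPS-primed PB value and 1.76 the highest of the rest. Tap1 to H2-D1 had a mean of 0.129 in LPS-primed PB samples against 0.0306 in PBS-primed PB, and Tapbp to H2-D1 0.151 against 0.0521. For both, too, every LPS-primed PB plate of both batches was above every other plate (0.102 against 0.0448, and 0.148 against 0.0982). B2m, H2-K1, Tap1 and Tapbp were therefore higher relative to H2-D1 in LPS-primed PB plates of both batches.

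The ratio of B2m to H2-K1 was close in the blood samples of batch 7, at 4.62 ± 0.371 after PBS and 4.72 ± 1.23 after LPS (SD, n = 2), and reached 8.33 ± 0.368 in PBS-primed BM samples. In batch 6 it was 6.86 in PBS-primed PB (plates 5.06 and 9.68) and 4.54 in LPS-primed PB (plates 5.09 and 3.86). LPS-primed PB was compared with the 6 other samples by a two-sided exact permutation test of the 6 ratios examined. The ratios were chosen after the data were seen, and the 6 other samples belong to different groups. In this exact permutation test each of the 4 ratios to H2-D1, and that of Tap1 to Tapbp, gave p = 0.0714 (0.0857 after Benjamini-Hochberg adjustment), the smallest p that 2 samples against 6 allow, so that this design cannot reach 0.05. B2m to H2-K1 gave p = 0.5 in the same exact permutation test. Over all plates the ratio of Tap1 to Tapbp overlapped (lowest LPS-primed PB plate 0.534, highest other plate 1.04). How reads were split between the heavy chain genes enters the ratio of H2-K1 to H2-D1 directly, and its part in the shift was not tested.

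**Figure D3:**
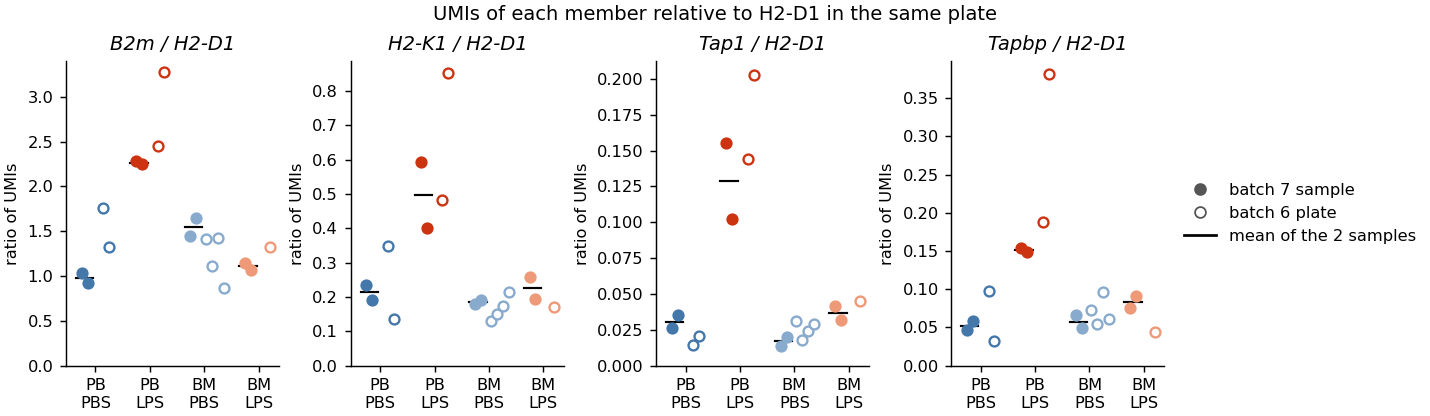
UMIs of B2m, H2-K1, Tap1 and Tapbp divided by the H2-D1 UMIs of the same plate (linear axes from 0), by group, with filled points for batch 7 samples, open points for batch 6 plates and a bar for the mean of the 2 samples. In each panel the 4 LPS-primed PB plates lie above the 13 other plates.

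In single cells, the members differed in how widely they were found. To set cells of unequal depth level, each was thinned to 5000 UMIs, which no cell fell short of. B2m was then found in 83.1% to 100% and H2-D1 in 85.5% to 100% of the cells of every plate. Before thinning both were found in at least 97.6% of cells in each plate. These 2 transcripts were thus near universal, and their differences lay in the amount per cell: the median B2m level of a cell was 5728.6 and 7208.0 CPM after LPS in blood, 3083.8 and 3229.2 in PBS-primed PB, and in marrow 1508.9 and 2044.2 after PBS and 1668.2 and 1486.9 after LPS. The median H2-D1 level was 2845.9 and 3227.4 in LPS-primed PB and 3284.6 and 3839.5 in PBS-primed PB.

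H2-K1 was found after thinning in 73.3% (95% exact Clopper-Pearson interval 63.0% to 82.1%) and 66.3% (55.3% to 76.1%) of cells in PBS-primed PB samples and in 87.9% (79.4% to 93.8%) and 87.2% (78.3% to 93.4%) in LPS-primed PB. Marrow samples had 38.6% and 37.0% after PBS and 56.0% and 46.7% after LPS. In the batch 6 plates the share was 79.5% and 50% in PBS-primed PB and 97.9% and 94.5% in LPS-primed PB. The median cell of the LPS-primed PB samples had 1227.5 and 1054.8 CPM of H2-K1, and that of the PBS-primed PB samples 216.0 and 199.0, although the upper quartile there was 1151.3 and 1058.6. The upper quartile of PBS-primed PB cells thus lay near the median of LPS-primed PB cells.

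After thinning, Tap1 was found in a minority of cells outside LPS-primed PB. It was found in 20% (12.3% to 29.8%) and 15.1% (8.30% to 24.5%) of PBS-primed PB cells and in 57.1% (46.3% to 67.5%) and 46.5% (35.7% to 57.6%) of LPS-primed PB cells, and in 6.02% to 7.61% of PBS-primed and 9.89% to 16.3% of LPS-primed BM cells of the samples. All 4 LPS-primed PB plates of both batches, at 46.5% to 61.1%, lay above all other plates, of which the highest was at 20%. Without thinning the shares were 76.7% to 95.8% in LPS-primed PB and 39.5% to 42.2% in PBS-primed PB plates, and in marrow 21.4% to 68.9% after PBS and 33.0% to 54.5% after LPS. A few cells carried much of the Tap1 signal where it was rare: the 2 highest cells held 74.6% and 55.6% of the Tap1 UMIs in PBS-primed BM samples and 19.1% and 19.8% in LPS-primed PB.

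Tapbp was found after thinning in 32.2% and 37.2% of PBS-primed PB, 62.6% and 70.9% of LPS-primed PB, 15.7% and 19.6% of PBS-primed BM and 22% and 29.3% of LPS-primed BM cells of the samples. Its LPS-primed PB plates, 62.6% to 85.7% over both batches, were above all others, of which the highest was a PBS-primed BM plate of 45 cells at 42.2%. The intervals cover counting error only, and cells of a plate are not replicates.

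**Figure D4:**
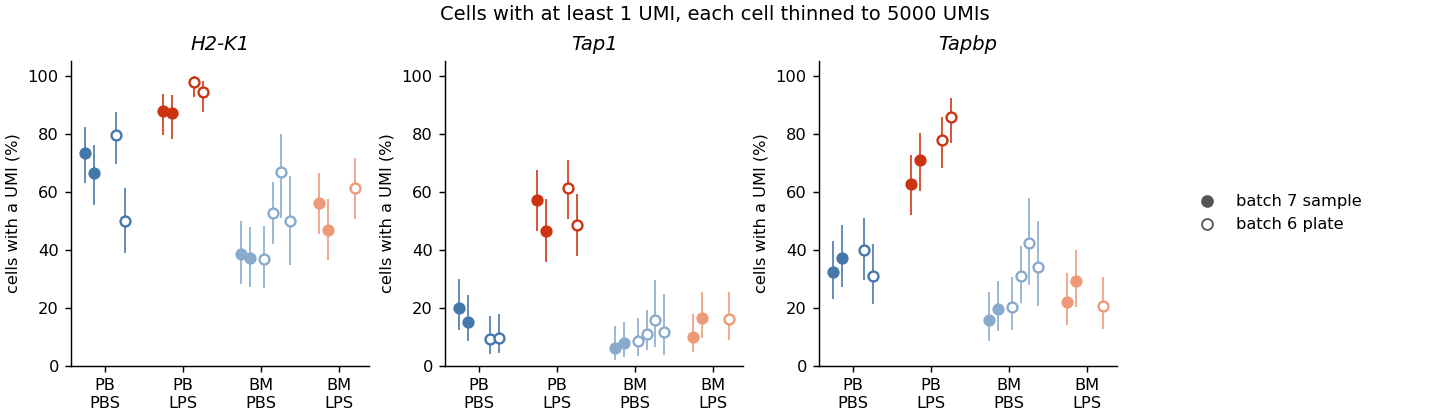
Share of cells (%) with at least 1 UMI of H2-K1, Tap1 or Tapbp after each cell was thinned to 5000 UMIs, by group and plate, with exact 95% binomial intervals, filled for batch 7 samples and open for batch 6 plates. For Tap1 and Tapbp the LPS-primed PB plates lie above all other plates, and for H2-K1 above all others too, with the nearest PBS-primed PB plate at 79.5%.

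Cells were also compared in pairs by CPM from their full counts, without thinning, so unequal depth enters through cells with no UMI. When a cell of LPS-primed PB was drawn beside a cell of PBS-primed PB, the CPM of the former was higher in 72.0% to 75.5% of pairs for B2m, 71.2% to 75.7% for H2-K1, 70.8% to 80.3% for Tap1 and 63.2% to 80.0% for Tapbp over the 4 pairs of samples, ties counted at 0.5. For H2-D1 it was 41.1% to 49.9%. In marrow the same measure was 36.9% to 53.4% for B2m, 46.4% to 58.7% for H2-D1, 54.9% to 63.0% for H2-K1, 53.2% to 55.8% for Tap1 and 57.9% to 63.1% for Tapbp.

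The deposited annotation gives each cell 1 of 3 clusters, and the LPS-primed PB samples of batch 7 were mostly divided between clusters 1 and 2. Cluster 2 held 46.2% and 48.8% of their cells and cluster 1 held 52.7% and 40.7%, whereas in batch 6 cluster 2 held 99.5% of LPS-primed PB cells. PBS-primed PB samples were almost wholly in cluster 1, with 98.9% and 98.8%. Within LPS-primed PB replicate 1, B2m was at 8366.9 CPM in cluster 2 and 5232.4 in cluster 1, H2-K1 at 2248.2 and 1272.2, and Tap1 at 570.4 and 352.3. In replicate 2 the values were 9224.7 and 6006.6 for B2m, 1762.3 and 671.4 for H2-K1, and 453.9 and 213.7 for Tap1. For H2-D1 the values of clusters 2 and 1 were 3088.1 and 3028.1 in replicate 1, and 3852.7 and 3381.3 in replicate 2. For Tapbp they were 581.5 and 321.4 in replicate 1, and 685.0 and 227.3 in replicate 2. Replicate 2 also had 9 cells (10.5%) in cluster 0, where Tap1 was at 55.2, Tapbp at 121.3, H2-D1 at 1434.1, H2-K1 at 1470.9 and B2m at 4140.5 CPM, whereas replicate 1 had 1 such cell. Cluster 1 cells of LPS-primed PB lay above the cluster 1 cells of PBS-primed PB for B2m (3678.1 and 3887.8) and Tap1 (92.9 and 148.4). In replicate 2 they did not for H2-K1 (671.4 against 844.8 and 799.7). For Tapbp the cluster 1 cells of the 2 blood groups overlapped (164.8 and 245.3 after PBS). For H2-D1 those of LPS-primed PB lay below those of PBS-primed PB (3566.1 and 4209.3). As the clusters were made from the same cells and genes, these values are a description.

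Across the cells of an LPS-primed PB plate, B2m and H2-K1 had Spearman correlations of 0.13 to 0.45 after thinning (4 plates, median 0.39), B2m and Tapbp 0.09 to 0.31, and H2-K1 and Tapbp 0.05 to 0.43. In PBS-primed PB plates B2m and H2-K1 ranged from -0.16 to 0.22. H2-D1 and H2-K1 had -0.10 to 0.07 in PBS-primed PB and 0.03 to 0.27 in LPS-primed PB plates. All of these are weak correlations of sparse counts from cells that share a plate and are given as a description.

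Genes that act with the members in class I presentation were followed in lists. The immunoproteasome subunits Psmb8 and Psmb9 and the proteasome activator subunit Psme2 rose with LPS in blood, 3 of 5 in their list, by log2 fold changes of 2.56 (SE 0.36, edgeR adjusted p = 0.00195), 2.95 (SE 0.52, edgeR adjusted p = 0.00919) and 2.73 (SE 0.32, edgeR adjusted p = 0.000646). Psmb10 (2.63, edgeR adjusted p = 0.329) and Psme1 did not pass, and the median of the list was 2.63. In marrow 0 of 5 passed, with a median of -0.49. Under library size alone Psmb8 (1.64) and Psme2 (1.81) passed and Psmb9 (2.02, edgeR adjusted p = 0.0551) did not. The difference between the blood and marrow effects passed for the same 3 subunits (2.94, 3.45 and 2.71) under TMM and for none under library size alone. In batch 6, LPS-primed and PBS-primed PB cells had 643.4 and 267.3 CPM of Psmb8 and 853.5 and 90.6 of Psme2, with a smaller difference for Psmb9, at 191.5 and 153.7.

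The peptide loading and editing list had 0 of 8 genes called with LPS in either tissue, with a median of 0.92 in blood and -0.17 in marrow. Tap2, the partner of Tap1 in the transporter, was at 64.5 and 38.6 CPM in PBS-primed PB and 54.8 and 60.5 in LPS-primed PB, a log2 fold change of 1.07 (SE 0.80, edgeR adjusted p = 0.543) under TMM and 0.16 under library size alone. The test between Tap1 and Tap2 was not made. The chaperone calreticulin, Calr, was at 99.1 and 74.5 in PBS-primed PB and 21.7 and 37.6 in LPS-primed PB, a log2 fold change of -0.62 (SE 0.75, edgeR adjusted p = 0.75).

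Of the other class I heavy chain genes and relatives, 8 were tested and 0 were called with LPS in either tissue, with a median of -0.16 in blood. H2-Q10, which encodes a secreted heavy chain known from the liver, was the most abundant of them, at 1310.0 and 1526.1 CPM in PBS-primed PB, 415.5 and 411.9 in LPS-primed PB, 182.0 to 275.9 in marrow samples. Its log2 fold change with LPS in blood was -0.86 (SE 0.27, edgeR adjusted p = 0.118) under TMM and -1.78 (edgeR adjusted p = 0.00445) under library size alone. It was higher in blood than in marrow after PBS (1.91, edgeR adjusted p = 0.00374) and after LPS (1.48, edgeR adjusted p = 0.0102), the latter not under library size alone (0.90, edgeR adjusted p = 0.106). Batch 6, with next to no liver transcripts in blood, had 1017.9 CPM in PBS-primed and 148.9 in LPS-primed PB cells. H2-T23, a non-classical heavy chain that presents signal peptides, was higher in blood than marrow after LPS (1.67, edgeR adjusted p = 0.0425, and 0.201 under library size alone) and had 159.7 and 188.2 in PBS-primed and 184.0 and 163.5 CPM in LPS-primed PB. Read sharing with the classical heavy chains applies to these genes as well.

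Of 15 tested transactivators of class I genes, 3 rose with LPS in blood: Irf7 (3.35, edgeR adjusted p = 0.000784), a factor of the interferon response, and Irf9 (2.31, edgeR adjusted p = 0.0278) and Stat2 (4.04, edgeR adjusted p = 0.00137), parts of the complex that binds interferon response elements. The median of the list was 1.22 over the 14 genes not at the floor in both blood groups, and 0 of 15 were called in marrow. Under library size alone Irf9 (1.40, edgeR adjusted p = 0.141) did not pass, and batch 6 had 181.7 CPM of Irf9 in LPS-primed and 230.2 in PBS-primed PB cells. Nlrc5, the class I transactivator, was at 30.4 and 0.618 CPM in PBS-primed PB and 131.2 and 114.6 in LPS-primed PB, a log2 fold change of 3.87 with a wide error (SE 1.70, edgeR adjusted p = 0.283), and its PBS-primed PB samples were far apart. In batch 6 Nlrc5 had 15.5 in PBS-primed and 282.3 in LPS-primed PB cells. Irf1 was at 397.3 and 250.3 in PBS-primed and 340.2 and 319.7 in LPS-primed PB.

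Class II presentation genes, which serve helper T cells and are typical of B cells and dendritic cells, were also followed. Of 10 tested, H2-Ab1, a class II β chain, fell with LPS in blood (log2 fold change -6.23, SE 1.51, edgeR adjusted p = 0.0464), from 78.0 and 136.0 to 0.625 and 0.85 CPM, and the protease gene Ctss rose (3.12, SE 0.70, edgeR adjusted p = 0.0326, and 0.117 under library size alone). The median of the list was -5.7 as fitted and -3.47 with 2 genes at 0 in LPS-primed PB set to the limit that 3 UMIs over the group would give. H2-Ab1 and the summed T or NK markers were both lower in LPS-primed than in PBS-primed PB samples. Not all class II genes fell, and 3 of the 10 had a log2 fold change above 0. Cd74 was at 79.4 and 136.6 CPM in PBS-primed and 51.4 and 79.2 in LPS-primed PB. Its log2 fold change was 0.20 (SE 0.98, edgeR adjusted p = 0.969) under TMM and -0.73 under library size alone. The relation of class II genes to lymphoid-marker cells was not tested.

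**Figure D5:**
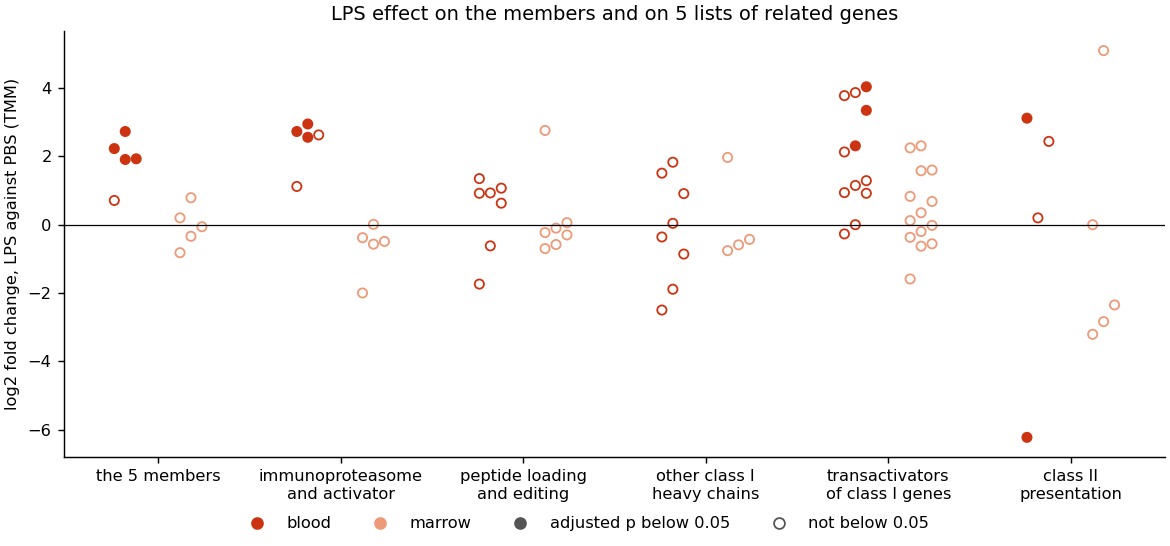
Log2 fold changes of LPS against PBS (TMM) for the 5 members and for genes of 5 related lists, in blood (red) and marrow (orange), filled where the edgeR adjusted p was below 0.05, with genes at 3 or fewer UMIs in a compared group left out. All filled points are in blood: 4 members, 3 immunoproteasome or activator genes, 3 transactivators, and Ctss and H2-Ab1 among class II genes.

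By the Pearson correlation with the members' mean log2 level of TMM-scaled CPM over the 8 samples, the closest of 2266 genes with a mean of at least 50 CPM were Cxcl10 (r = 0.998), Trim34a (0.997), Fth1 (0.995), Fcgr4 (0.988) and Ccl4 (0.988). Over the 9 plates of batch 6, in CPM without TMM, the same genes had r = 0.869, 0.719, 0.982, 0.921 and 0.934. Cxcl10 and Ccl4 encode chemokines, Fth1 the ferritin heavy chain and Fcgr4 an Fc receptor. Among the members themselves, each gene's r with the mean of the other 4 was 0.923 to 0.984 over the samples, and in batch 6 it was 0.918 for H2-K1, 0.888 for B2m, 0.850 for Tapbp, 0.731 for Tap1 and 0.366 for H2-D1. In CPM without TMM, H2-D1 was thus the member least like the others in the batch 6 plates. The correlations over samples and over batch 6 plates differ in scaling, on which the direction of H2-D1 with LPS in blood depends. Whether the scaling or the batch lowered its r was not tested. These correlations rest on 4 groups and are given as a description.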

How the data were processed

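Per the labels and the study's methods, adapter, template switch and poly(A) sequence was trimmed (cutadapt 1.15), reads were mapped to mm9 (STAR 2.6.0a), deduplicated by UMI and quantified for each barcode (HTSeq 0.11.2). The authors deposited the resulting UMI counts, not normalized, after their own filters on cells and genes. The deposited cell annotation adds batch, cluster and an ERCC fraction, whose denominator is not given in the sources used here.

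From these, genes seen in 10 or more cells (9919) were summed per sample and tested with edgeR 4.0.16 in R 4.3.3 (filterByExpr, TMM, glmQLFit, glmQLFTest, 1 model of 4 groups and 8 samples, two-sided, Benjamini-Hochberg over 8478 genes, threshold 0.05), with code tested on simulated data. Samples held 3235712 to 8358212 UMIs, and the common dispersion was 1.06. Per-cell values and figures used Python 3.11.15.

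The members, gene lists and marker lists were chosen with earlier results of these data known. Named are the members, list genes past the threshold (at most 6 per list and comparison, by adjusted p) and the 5 genes best correlated with the members' mean log2(CPM + 1), TMM-scaled over the samples. Tap2, Calr, Psmb10, Psme1, Nlrc5, Irf1, Cd74 and the granule genes Ngp and Ltf were named after their values were seen. Cells with other markers held at least 5 UMIs in each of at least 2 markers of 1 type. Marker lists not given in the report summed, over the samples, to 29.9 to 401.9 CPM (monocyte or macrophage) and at most 17.8 (dendritic cell), 26.9 (erythroid) and 5.31 (eosinophil or basophil). The summed level of the B cell list is not reported here. The same 95 well barcodes recur across plates. Doublets were not called, as cells were picked one by one.

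Alternatives were DESeq2 1.42.0, limma 3.58.1, other scaling, filters, left-out samples, the replicate number as a block, batch 6 sums with batch as a term, thinned cells, left-out cells and summed heavy chains. Cell number as scaling, library size for the summed heavy chains, the marker filter without the liver list and the ratios of members were chosen after seeing the data.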

Additional observations from a re-analysis of the deposited data

Results flagged for a closer look

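The LPS effect differed between blood and marrow for 2 members by the test of the difference itself. B2m had a difference of 2.75 on the log2 scale (SE 0.23, edgeR adjusted p = 0.000102), with both LPS-primed PB samples above both PBS-primed PB samples and both LPS-primed BM samples below both PBS-primed BM samples. In batch 6 the marrow part of this contrast pointed the other way in CPM, at a ratio of 1.26. H2-K1 had a difference of 1.97 (SE 0.33, edgeR adjusted p = 0.0114), higher in both LPS-primed PB samples and overlapping in marrow.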

How the results depend on the processing

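Of the 5 comparisons, the calls of LPS-primed PB against LPS-primed BM and of B2m and H2-K1 in LPS-primed against PBS-primed PB held in all 8 fits that left out 1 sample. The number of members past the threshold, with 1 sample left out, ranged from 2 to 5 for LPS in blood, from 1 to 3 for the difference between the LPS effects, stayed at 0 for LPS in marrow and for blood against marrow after PBS, and at 5 for blood against marrow after LPS. With DESeq2, all 5 members passed for LPS in blood, beside 1057 of 8478 genes, and 1 for LPS in marrow, beside 196. There, 3 passed for blood against marrow after PBS, beside 962 genes, and 5 for the difference, beside 500. Under library size alone, 3 passed for blood against marrow after PBS, beside 297 of 8478 genes, and 1 for the difference, beside 64. With the batch 6 sums and batch as a term, 1 passed for blood against marrow after PBS, beside 416 of 8622 genes. Without cells with other markers, which removes most blood cells, 1 passed for LPS in blood, 1 for blood against marrow after LPS and 1 for the difference. Of the 7055 genes tested in that fit, 82, 42 and 31 passed. With the liver list left out of the marker filter, 1 passed for blood against marrow after PBS, beside 224 of 8292 genes. With cell number as the scaling, 3 passed for blood against marrow after LPS, beside 265 of 8478 genes, and 1 for the difference, beside 60. The causes were not tested.

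Signs turned, or values reached 0, for H2-D1 with LPS in blood (-0.21) and in the difference (-0.06), for the summed heavy chains in the same comparisons (-0.17 and -0.03) and for B2m between tissues after PBS (0.42) under library size alone, for B2m between tissues after PBS (0.21) and Tapbp with LPS in marrow (0) with batch 6 added, and for H2-D1 between tissues after PBS (-0.24) without cells with other markers. Without PBS-primed BM replicate 2, B2m between tissues after PBS and Tapbp with LPS in marrow were also at 0. H2-K1 with LPS in marrow, -0.06 under TMM, was 0.13 under library size alone, 0.08 with batch 6, 0.09 without the 2 highest cells, 0.01 without cells with other markers, 0.02 with the liver list left out of that filter, 0.12 by cell number, and -0.31 to 0.13 with 1 sample left out. None of these reversed values was called.

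The counts of all genes called, in the order LPS in blood, LPS in marrow, blood against marrow after PBS, the same after LPS, and the difference, were 334, 6, 221, 316 and 127 in edgeR. They were 1057, 196, 962, 951 and 500 in DESeq2, and 651, 27, 416, 532 and 203 with batch 6. Without cells with other markers they were 82, 1, 74, 42 and 31. Other settings past 1.5 times were limma (10 for LPS in marrow, 370 and 536 between tissues), library size alone (10 for LPS in marrow, 64 for the difference), at least 100 UMIs (10) and thinned cells (28) for LPS in marrow, the liver list left out (3 for LPS in marrow), a block (13 for LPS in marrow) and cell number (178 for LPS in blood, 60 for the difference). With 1 sample left out they ranged from 146 to 400, 2 to 28, 108 to 342, 144 to 382 and 80 to 168. The numbers of the replicates did not pair samples (correlations of their deviations from -0.03 to 0.01). With a replicate block, 5 members, H2-D1 among them (edgeR adjusted p = 0.0336), passed for LPS in blood, beside 374 of 8478 genes. For the difference between the LPS effects 3 members passed, beside 154 genes. Thinning lowered 36 of 40 shares of cells with a UMI beyond their interval, so shares are compared only after thinning. With 2 samples per group and a common dispersion of 1.06, moderate changes of rare genes such as Tap2 or Nlrc5 could be missed.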
